A study of Homo sapiens with 4 samples.

Results

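Genes of xenobiotic metabolism were examined in the human neuroblastoma cell line SK-N-SH after 24 h of exposure to 2,3,7,8-tetrachlorodibenzo-p-dioxin (TCDD) at 1e-10 M. The set held 47 gene names, made up of oxidising enzymes, conjugating enzymes, nuclear receptors and efflux transporters, and a feature of the array was taken when its platform annotation gave exactly 1 gene symbol and that symbol was in the set. Of the 47 genes, 46 had such a feature, 49 features in all of the 13493 in the table, and NR1I2 had none. For CYP1B1, CYP8B1 and UGT2B10, which had several features, the brighter by the mean of 4 arrays stood for the gene and the other is given beside it. RNA came from 2 samples labelled TCDD and 2 labelled DMSO, the solvent, which was present at 0.1% or lower in every treatment including TCDD. Replicates are named as biological in the titles, but dates and batches are not given, so p-values measure only the spread between these arrays, which may be technical. The line was the only cell system, at 1 dose and 1 time, and the features lay on chromosomes 1 to 5, so members of the same families on other chromosomes were not analysed here.

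Foreign compounds are handled in steps. Cytochrome P450 enzymes, flavin monooxygenases, alcohol dehydrogenases and molybdenum hydroxylases introduce or expose a reactive group, transferases then attach glutathione, a sugar or sulfate, and efflux pumps export the product. TCDD binds the aryl hydrocarbon receptor (AhR), a transcription factor that pairs with ARNT and binds DNA at sites with the core GCGTG, and CYP1B1 is a classical target. Many of these enzymes are best known from liver, while CYP2U1, CYP4X1 and CYP26B1 are also known from brain.

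Signals are log2 values that the authors made with RMA, and each difference is TCDD minus DMSO, between means of 2 arrays on that scale. Each feature was tested with limma over the whole table and was called at a Benjamini-Hochberg adjusted p under 0.05. With 2 arrays against 2, an exact permutation test of 1 gene could not go below a two-sided p of 0.333. Fits with 1 array left out keep only 1 array in its group. A call lost or gained there does not by itself show dependence on that array. Median signals of the arrays lay between 8.19 and 8.22, and their interquartile ranges were 2.13 and 2.00 for the DMSO arrays and 2.21 and 2.20 for the TCDD arrays. A reference for low signal was 8.34, the level that 95% of 76 olfactory receptor genes did not exceed. It is a rough guide, because probes differ in affinity. All 6 measured noradrenergic neuroblastoma markers, HAND2, GATA2, ALK and MYCN among them, and all 4 measured mesenchymal-type markers lay above it. Of 13 hepatocyte markers 2 did, and of 4 immune and 2 endothelial markers 0 did.

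Few xenobiotic genes were called, and none changed by 1.5-fold, a size that was also rare over all features. Over the 46 genes, CYP20A1, a cytochrome P450 without an established substrate, rose and CYP4X1, a fatty acid P450 known from brain, fell. That is 1 gene higher and 1 lower, against 9.41% of all features called higher and 8.01% called lower, or 17.4% in either direction. The mean signal of CYP4X1 was 7.09, below the reference level of 8.34, and that of CYP20A1 was 9.11, above it. No member changed by 1.5-fold, as 1.67% of all features did, and the largest factor was 1.21, for CYP20A1. Of the 6647 features with 1 symbol, as all members have, 44 changed by 1.5-fold. Among these 6647, 532 were called higher and 359 lower, and the median difference was 0.055. At an unadjusted limma p under 0.05, 4 members were higher and 8 lower, against 22.8% and 16.7% of all features. The median difference of the 46 genes was -0.037, against 0.023 over all features. Neither call held without DMSO replicate 2, without TCDD replicate 1 or without TCDD replicate 2, each of which left 0 members called, whereas 4 were called higher and 10 lower without DMSO replicate 1. Calls over all features moved with them, from 2.74% higher and 2.03% lower without DMSO replicate 2 to 19.1% higher and 15.5% lower without DMSO replicate 1.

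**Figure D1:**
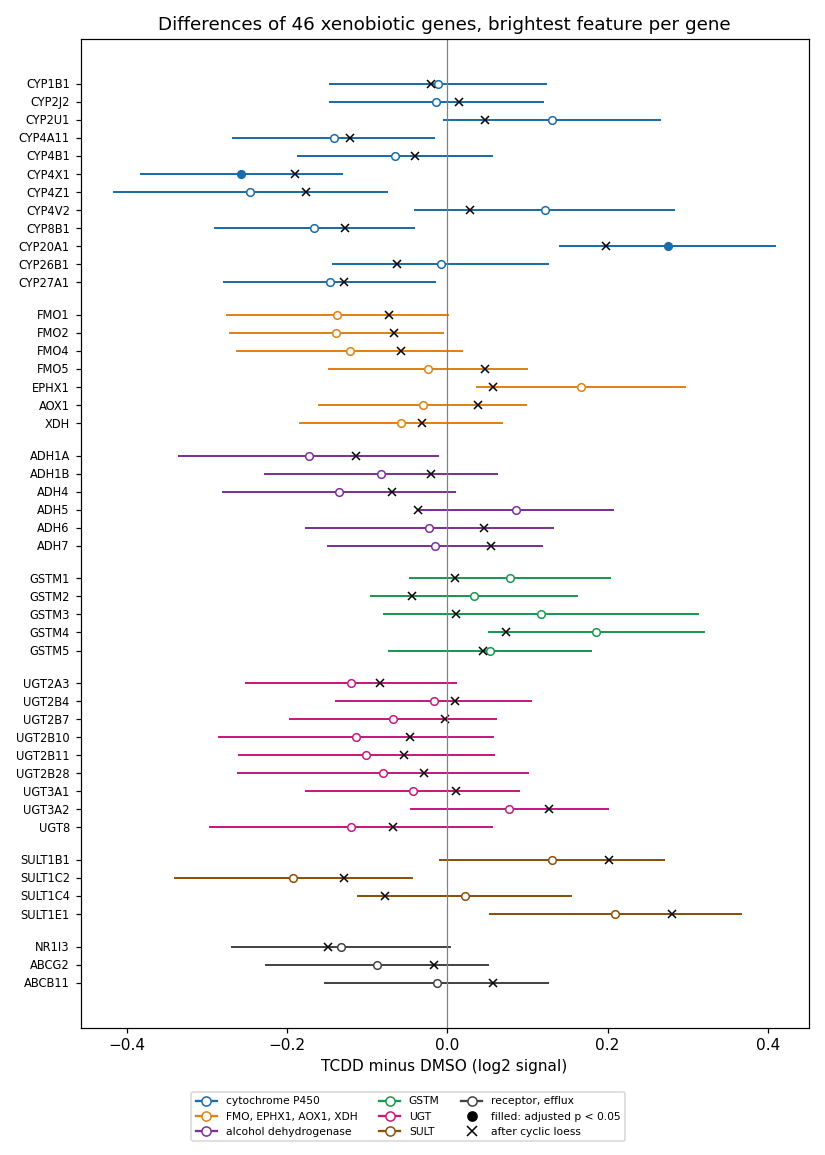
Difference between TCDD and DMSO (log2 signal, horizontal axis) for each of the 46 genes by its brightest feature, coloured by role, with bars for the 95% interval of the limma fit. Filled circles, CYP20A1 and CYP4X1, passed an adjusted p of 0.05, open circles did not, and crosses give the difference after cyclic loess normalization, at which SULT1E1 and SULT1B1 were also called.

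Windows before start sites are shown for CYP4X1 (both starts in the table), for CYP20A1 (the start that matches the gene's own), for CYP4Z1, which neighbours CYP4X1 and had a similar difference, and for SULT1E1, which was called after renormalization. Each is the 250 bases before an annotated RefSeq start (GRCh38.p14), 5′ to 3′ on the gene's strand, with capitals for the AhR core GCGTG or, where the core lies on the other strand, CACGC.
CYP20A1 (chr2:203238768-203239017, plus strand): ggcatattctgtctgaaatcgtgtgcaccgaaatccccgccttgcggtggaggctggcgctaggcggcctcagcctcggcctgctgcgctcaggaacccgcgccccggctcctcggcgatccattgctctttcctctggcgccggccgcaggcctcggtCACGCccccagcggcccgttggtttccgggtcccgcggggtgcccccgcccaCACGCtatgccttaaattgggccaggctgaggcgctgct
CYP4X1, upstream start (chr1:46961114-46961363, plus strand): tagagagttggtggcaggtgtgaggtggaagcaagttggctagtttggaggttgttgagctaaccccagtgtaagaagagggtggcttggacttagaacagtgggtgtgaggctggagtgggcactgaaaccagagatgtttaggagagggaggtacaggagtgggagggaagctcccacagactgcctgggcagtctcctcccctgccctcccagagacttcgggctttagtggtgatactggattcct
CYP4X1, downstream start (chr1:47023419-47023668, plus strand): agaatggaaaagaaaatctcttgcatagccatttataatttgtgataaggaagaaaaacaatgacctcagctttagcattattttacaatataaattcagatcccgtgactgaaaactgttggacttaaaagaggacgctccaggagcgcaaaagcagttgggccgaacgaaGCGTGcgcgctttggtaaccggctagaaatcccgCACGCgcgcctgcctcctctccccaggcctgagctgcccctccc
CYP4Z1 (chr1:47066981-47067230, plus strand): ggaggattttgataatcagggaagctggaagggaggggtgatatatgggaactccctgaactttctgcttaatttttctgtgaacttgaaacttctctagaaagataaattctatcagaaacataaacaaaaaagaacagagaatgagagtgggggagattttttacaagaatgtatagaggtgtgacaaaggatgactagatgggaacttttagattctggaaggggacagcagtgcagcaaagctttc
SULT1E1 (chr4:69860146-69860395, minus strand): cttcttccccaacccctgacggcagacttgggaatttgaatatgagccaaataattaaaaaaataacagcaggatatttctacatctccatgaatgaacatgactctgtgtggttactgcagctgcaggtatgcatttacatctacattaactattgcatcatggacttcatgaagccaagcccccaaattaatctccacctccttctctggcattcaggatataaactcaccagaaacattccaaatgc

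The CYP20A1 window shown held the core on the other strand 91 and 39 bases before the start, 1 of them within the longer motif TNGCGTG. The window of a later CYP20A1 start (chr2:203239091-203239340), which lies past the start shown and is not printed, held no core on either strand. At the downstream CYP4X1 start the core was found 78 and 44 bases before the start, once on each strand, and the windows of the upstream CYP4X1 start, CYP4Z1 and SULT1E1 held none. Of the 47 genes, 41 had at least 1 window in the RefSeq table, and 11 of these (26.8%) held GCGTG on either strand, against 36.2% of 27305 genes with a window. The other members with a core were CYP2J2, FMO4, EPHX1, ADH5, GSTM3, GSTM4, GSTM5, UGT8 and ABCG2. In CYP2J2, EPHX1, GSTM5 and ABCG2 it lay only before starts that do not match the gene's own. TNGCGTG, which contains the core, was found in 2 of the 41, CYP20A1 and GSTM5, against 5.54% of all genes. CYP1B1, CYP4A11, CYP8B1, FMO2, UGT2B4 and UGT2B28 had no entry. A match gives letters only and is not a shown binding site.

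Among the 12 cytochrome P450 genes, 1 rose and 1 fell, against 9.41% and 8.01% of all features, and 10 did not pass. CYP20A1 on chromosome 2 read 9.02 and 8.93 in the DMSO arrays and 9.26 and 9.24 in the TCDD arrays. Both TCDD arrays were above both DMSO arrays, and the difference was 0.28 (SE 0.056, 95% interval 0.14 to 0.41, limma adjusted p = 0.027). It remained called after cyclic loess (0.20, limma adjusted p = 0.038). It was 0.23 without DMSO replicate 2 (limma adjusted p = 0.064), 0.26 without TCDD replicate 1 (limma adjusted p = 0.156) and 0.29 without TCDD replicate 2 (limma adjusted p = 0.087), and so not called.

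CYP4X1 on chromosome 1 read 7.19 and 7.25 in DMSO and 6.96 in both TCDD arrays. Its mean signal of 7.09 was below the reference level. The TCDD arrays were below both DMSO arrays, and the gene fell by 0.26 (SE 0.052, 95% interval -0.38 to -0.13, limma adjusted p = 0.027). After cyclic loess the difference was -0.19 (limma adjusted p = 0.038). It was not called when DMSO replicate 2 was left out (-0.23, limma adjusted p = 0.062). The same held for TCDD replicate 1 (-0.26, limma adjusted p = 0.168) and TCDD replicate 2 (-0.26, limma adjusted p = 0.143). The neighbouring CYP4Z1, a P450 known from mammary tissue, read 6.98 and 7.15 in DMSO and 6.78 and 6.85 in TCDD. Its groups did not overlap either, and its difference of -0.25 was close in size to that of CYP4X1, but the spread was wider and it did not pass (SE 0.070, limma adjusted p = 0.059).

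CYP4X1 and CYP4Z1 belong to a run of CYP4 genes on chromosome 1 that also holds CYP4B1 and the fatty acid omega-hydroxylase CYP4A11. All 4 members of this run had negative differences, with a median of -0.19, and -0.15 after cyclic loess. Their mean signals, 6.94 to 8.08, lay below the reference level, where 29 of 32 members had negative differences. The olfactory receptor features had a median difference of -0.15, and -0.13 after cyclic loess. CYP4A11 read 8.18 and 8.13 in DMSO and 8.00 and 8.02 in TCDD, a difference of -0.14 (limma adjusted p = 0.097). CYP4B1 differed by -0.065. CYP4A22, a close copy of CYP4A11 in the same family and not a member, fell by 0.21 (SE 0.050, limma adjusted p = 0.040), and by 0.18 after cyclic loess (limma adjusted p = 0.042). Features of such similar genes may share signal, and the probes were not examined. The call of CYP4A22 was lost without DMSO replicate 2 (-0.20), without TCDD replicate 1 (-0.20) and without TCDD replicate 2 (-0.21).

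CYP1B1, which oxidises polycyclic aromatic hydrocarbons and oestradiol, had 2 features that differed in outcome. The brighter read 8.46 and 8.37 in DMSO and 8.40 and 8.41 in TCDD, so that both TCDD values lay between the DMSO values, and the 95% interval of the difference ran from -0.15 to 0.12. The dimmer read 7.74 and 7.69 in DMSO and 7.93 and 7.97 in TCDD. Its groups were apart and it rose by 0.24 (SE 0.052, limma adjusted p = 0.033), a factor of 1.18, with a mean signal of 7.83 that is below the reference level. It was also called after cyclic loess (0.27, limma adjusted p = 0.034) and under quantile normalization (0.27, limma adjusted p = 0.045). Averaged over both features, the gene differed by 0.11 (limma adjusted p = 0.168). The call of the dimmer feature was lost without DMSO replicate 2 (0.21), without TCDD replicate 1 (0.26) and without TCDD replicate 2 (0.22). Which CYP1B1 transcripts or exons the features cover was not determined.

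CYP8B1, a sterol hydroxylase of bile acid synthesis, also had features that disagreed. The brighter read 7.92 and 7.88 in DMSO and 7.75 and 7.72 in TCDD (difference -0.17, limma adjusted p = 0.069), while the dimmer differed by 0.013 with overlapping groups. The mitochondrial sterol hydroxylase CYP27A1 differed by -0.15 (limma adjusted p = 0.101). CYP2U1 and CYP4V2, both fatty acid hydroxylases, differed by 0.13 and 0.12, and neither passed (limma adjusted p = 0.136 and limma adjusted p = 0.217). After cyclic loess these differences were 0.047 and 0.028. Without DMSO replicate 1 both were called higher (0.18 and 0.20), and without DMSO replicate 2 CYP4V2 differed by 0.042. CYP2J2, an arachidonic acid epoxygenase, and CYP26B1, which degrades retinoic acid, differed by -0.014 and -0.0082, with overlapping groups and 95% intervals from -0.15 to 0.12 and from -0.14 to 0.13.

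**Figure D2:**
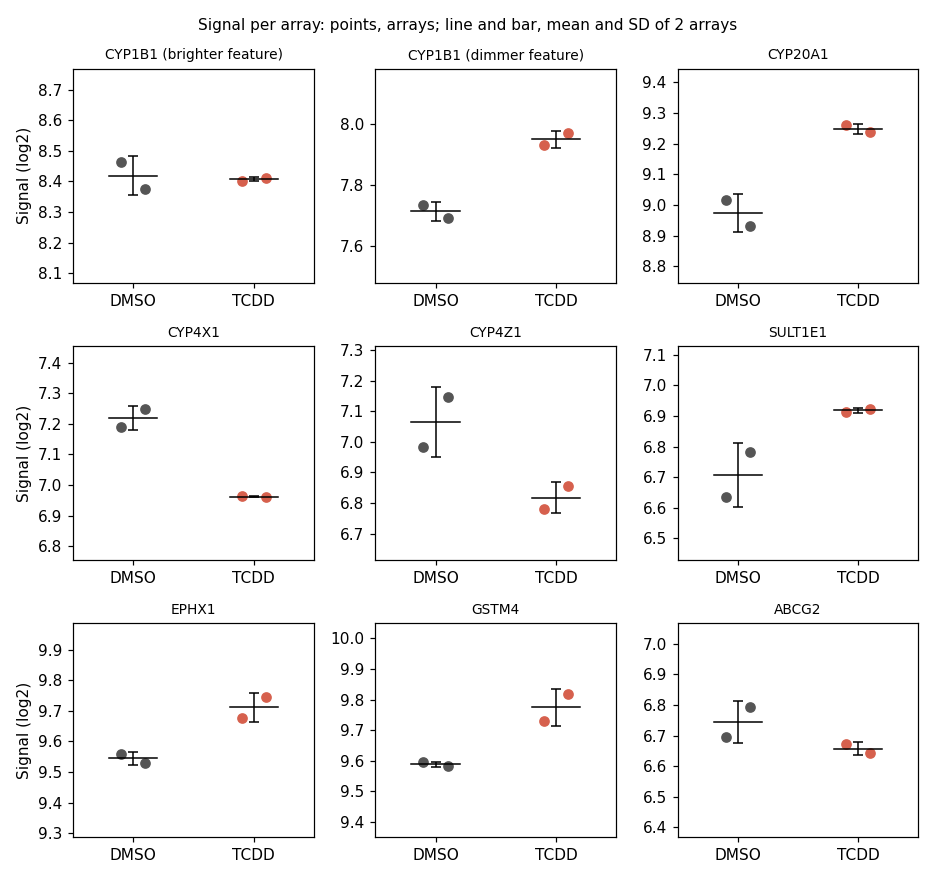
Signal (log2) of each array for 9 features of 8 genes, with DMSO arrays in grey, TCDD arrays in red, a line at the mean and a bar for the SD of 2 arrays. Each panel spans the same range of log2 units around its own values. CYP20A1, EPHX1, GSTM4, SULT1E1 and the dimmer CYP1B1 feature lie higher in both TCDD arrays, CYP4X1, CYP4Z1 and ABCG2 lower, and the brighter CYP1B1 feature overlaps.

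Of the other oxidising and hydrolysing enzymes, 0 of 7 flavin monooxygenase, hydrolase and molybdenum enzyme genes were called by limma. Of the 6 alcohol dehydrogenase genes 0 were called. Over all features 17.4% were called, so 0 in a group this small says little about a family. At an unadjusted limma p under 0.05 there were 1 higher and 1 lower in the first group. Among the alcohol dehydrogenases 1 was lower, and over all features 22.8% were higher and 16.7% lower. EPHX1, the microsomal epoxide hydrolase that opens reactive epoxides made by P450 enzymes, read 9.56 and 9.53 in DMSO and 9.68 and 9.74 in TCDD. Both TCDD arrays were higher, and the difference of 0.17 (SE 0.054, limma adjusted p = 0.075) did not pass. It was 0.057 after cyclic loess.

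The flavin monooxygenases oxidise nitrogen and sulfur atoms of drugs. FMO2, FMO1 and FMO4, which are neighbours on chromosome 1, had differences of -0.14, -0.14 and -0.12, and FMO5, elsewhere on that chromosome, -0.025. FMO1 and FMO2 illustrate the group, with FMO1 at 7.20 and 7.30 in DMSO and 7.09 and 7.13 in TCDD. FMO2 read 6.75 and 6.84 in DMSO and 6.65 and 6.66 in TCDD. In FMO1, FMO2 and FMO4 the groups were apart, yet without DMSO replicate 1 all 3 were called lower and with all arrays none was. The molybdenum hydroxylases AOX1 and XDH, the latter the last enzyme of purine breakdown, differed by -0.030 and -0.058.

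The alcohol dehydrogenases form 1 cluster on chromosome 4. ADH5, the glutathione-dependent formaldehyde dehydrogenase found in most cells, was the only one with a mean signal above 8.34, and read 10.01 and 9.99 in DMSO and 10.09 and 10.08 in TCDD. Its difference of 0.086 (limma adjusted p = 0.240) turned to -0.037 after cyclic loess. ADH1A, ADH1B, ADH4, ADH6 and ADH7 had signals of 6.35 to 7.34 and differences of -0.17, -0.082, -0.14, -0.022 and -0.015. ADH6 and ADH7 turned positive after cyclic loess, at 0.046 and 0.054.

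The 5 glutathione transferases of the mu class, which conjugate electrophiles with glutathione, lie side by side on chromosome 1. All 5 had positive differences, with a median of 0.079. By limma 0 were called, against 17.4% of all features, and 1 had an unadjusted p under 0.05, against 39.5%. GSTM4 read 9.59 and 9.58 in DMSO and 9.73 and 9.82 in TCDD. Its TCDD arrays were higher, and the difference was 0.19 (SE 0.055, limma adjusted p = 0.063). GSTM1 read 8.96 and 8.99 in DMSO and 9.04 and 9.08 in TCDD, a difference of 0.079 (limma adjusted p = 0.288). GSTM5 read 8.37 and 8.41 in DMSO and 8.43 and 8.46 in TCDD, a difference of 0.054 (limma adjusted p = 0.463).

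In the other mu-class genes the groups overlapped. GSTM2 read 9.08 and 9.12 in DMSO and 9.10 and 9.16 in TCDD, a difference of 0.033 (limma adjusted p = 0.656). GSTM3 read 9.60 in DMSO replicate 1, 9.38 in DMSO replicate 2 and 9.61 and 9.60 in TCDD. Its difference of 0.12 rested on DMSO replicate 2, being 0.0037 without that array and 0.23 without DMSO replicate 1. After cyclic loess the median of the 5 genes was 0.011, with differences from -0.045 in GSTM2 to 0.073 in GSTM4. The mu-class genes are close in sequence, so their features may share signal.

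The UDP glycosyltransferases attach glucuronic acid or another sugar, and 0 of 9 were called by limma, also 0 at an unadjusted p under 0.05. Over all features these shares were 17.4% and 39.5%. Signals of the 9 genes lay between 5.11 and 7.60, below the reference level in every case. UGT2A3, UGT2B4, UGT2B7, UGT2B10, UGT2B11 and UGT2B28, which conjugate steroids, bile acids and drugs in liver and gut, had differences from -0.12 (UGT2A3) to -0.017 (UGT2B4). The 2 features of UGT2B10 had similar differences of -0.11 and -0.090. UGT8, which makes the galactosylceramide of myelin, read 7.48 and 7.67 in DMSO and 7.47 and 7.44 in TCDD, a difference of -0.12 (limma adjusted p = 0.254). DMSO replicate 2 was the array that stood higher, and the difference was -0.028 without it and -0.21, called lower, without DMSO replicate 1. UGT3A1 and UGT3A2 are neighbours on chromosome 5 and differed by -0.043 and 0.077.

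The sulfotransferases held 2 of the 3 positive differences found among the 32 members with signals below the reference level, the other being UGT3A2. SULT1E1, the oestrogen sulfotransferase, read 6.63 and 6.78 in DMSO and 6.91 and 6.92 in TCDD. Both TCDD arrays were higher, and the difference was 0.21 (SE 0.065, limma adjusted p = 0.069), so it did not pass. After cyclic loess the gene rose by 0.28 (limma adjusted p = 0.028), and under quantile normalization by 0.27 (limma adjusted p = 0.036). SULT1B1, which sulfates phenols and thyroid hormone and lies near it on chromosome 4, read 6.48 and 6.56 in DMSO and 6.68 and 6.62 in TCDD. Its difference was 0.13 (limma adjusted p = 0.145), and after cyclic loess it rose by 0.20 (limma adjusted p = 0.042). On the deposited values SULT1E1 differed by 0.14 without DMSO replicate 1 and 0.28 without DMSO replicate 2.

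SULT1B1 and SULT1E1 adjoin the UGT2 genes on chromosome 4, with gaps under 500 kb, and all 6 UGT2 members had negative differences. SULT1C2 and SULT1C4, neighbours on chromosome 2, were unlike each other. SULT1C2 read 7.26 and 7.39 in DMSO and 7.14 and 7.13 in TCDD, a difference of -0.19 (limma adjusted p = 0.074). SULT1C4 had a mean signal of 9.42 and differed by 0.022 with overlapping groups. Over the 4 sulfotransferases 0 were called by limma on the deposited values, against 17.4% of all features. At an unadjusted limma p under 0.05 there were 1 higher and 1 lower, against 22.8% and 16.7%. After cyclic loess 2 were called higher, against 7.26% of all features.

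NR1I3, the constitutive androstane receptor that controls drug metabolism in liver, read 8.51 and 8.59 in DMSO and 8.40 and 8.43 in TCDD. The TCDD arrays were lower, and the difference of -0.13 (SE 0.056, limma adjusted p = 0.132) did not pass. It was -0.15 after cyclic loess, and the mean signal of 8.48 was just above the reference level. The efflux pump ABCG2, also called breast cancer resistance protein, read 6.70 and 6.79 in DMSO and 6.67 and 6.64 in TCDD, a difference of -0.088 (SE 0.057, 95% interval -0.23 to 0.051, limma adjusted p = 0.286). ABCB11, the bile salt export pump, differed by -0.013 with overlapping groups.

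Direction followed signal level among the members. Of the 14 above the reference level, 11 had positive differences, with a median of 0.082, and of the 32 at or below it 29 had negative ones, with a median of -0.085. CYP1B1 (8.41), GSTM5 (8.42) and NR1I3 (8.48) were just above that level and CYP27A1 (8.12) just below. All features showed the same trend, with a median difference of -0.057 in the dimmest 25% by signal and 0.12 in the brightest 25%. Of the 76 olfactory receptor features, 67 had negative differences (median -0.15). By limma 1 was called higher and 23 lower, against 9.41% and 8.01% of all features. After cyclic loess their median was -0.13, with 1 called higher and 17 lower, against 7.26% and 6.77%. The part of this in the members' negative differences was not tested. Over the 46 genes the correlation of mean signal with difference was 0.52 (Pearson) and 0.46 (Spearman), as a description, since all points share the same 4 arrays.

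The DMSO arrays also differed between themselves by signal level, with DMSO replicate 2 against DMSO replicate 1 running opposite to TCDD against DMSO. Of the 32 dim members, 28 read higher in DMSO replicate 2 than in DMSO replicate 1 (median 0.085), and of the 14 bright members 4 did (median -0.049). For TCDD replicate 2 against TCDD replicate 1 the medians were 0.013 and 0.026. Differences were negative in 12 of 13 hepatocyte markers (median -0.091) and 4 of 4 immune markers (median -0.19), of which the immune gene FCGR3A was called. The bright neuroblastoma markers were mostly positive, in 4 of 4 mesenchymal-type genes (median 0.22), of which PRRX1, TGFBR2 and NOTCH2 rose, and in 5 of 6 noradrenergic genes (median 0.13), of which HAND1 rose. After cyclic loess 4 of 4 and 3 of 6 were positive, with 1 and 0 called by limma. The mean log2 signal of the hepatocyte list was 7.21 and 7.29 in DMSO and 7.16 and 7.15 in TCDD, and that of the immune list 7.12 and 7.24 in DMSO and 6.97 and 7.00 in TCDD. After cyclic loess, which removes a trend with signal by construction, the correlation over the members was 0.070 (Pearson) and 0.083 (Spearman), and 11 of the 46 differences changed sign. Then 3 members were called higher, CYP20A1, SULT1B1 and SULT1E1, and 1 lower, CYP4X1, against 7.26% and 6.77% of all features. The part of array contrast or of those markers in the members' differences was not tested.

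**Figure D3:**
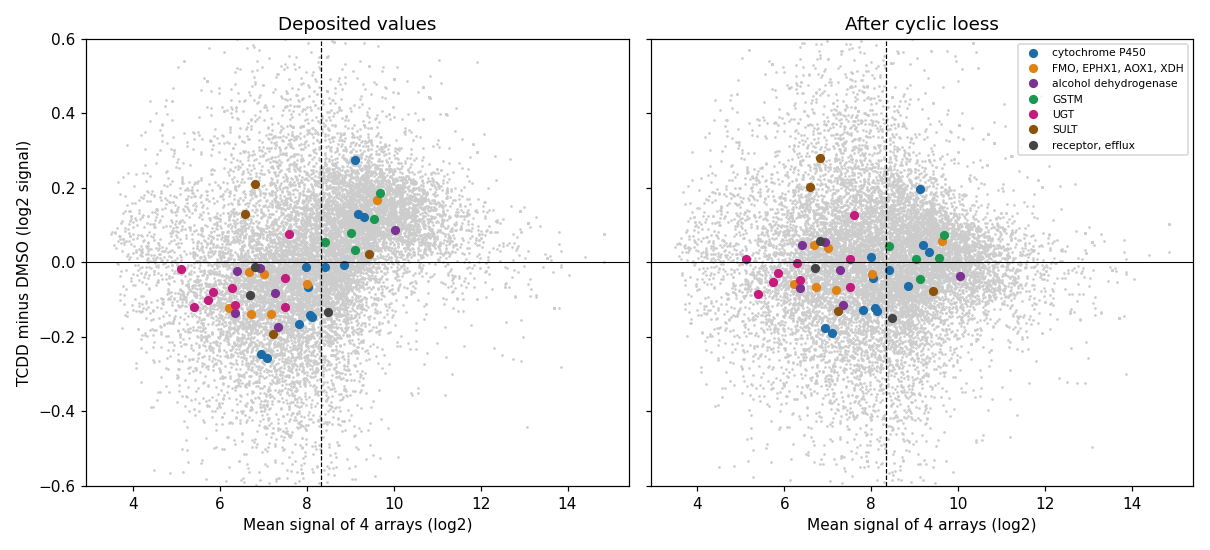
Difference between TCDD and DMSO (log2 signal, vertical axis) against the mean signal of 4 arrays (log2, horizontal axis), for the deposited values on the left and after cyclic loess on the right. Grey points are all features, coloured points the 46 genes by role and the dashed line the reference level of 8.34. The vertical axis ends at 0.6 in both directions, leaving out 209 features on the left and 204 on the right. On the left most members lie below 0 at low signal and above 0 at high signal, and on the right they lie on both sides of 0 at all levels.

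Groups did not overlap for 11 members that were higher in TCDD and 19 that were lower, against 40.7% and 30.9% of all features, or 71.7% in either direction. A culture with fewer cells of a kind and one with less RNA per cell cannot be told apart in such bulk signals.

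Of 52 further genes of the pathway, listed as other enzymes, cofactor suppliers, transporters and AhR partners or targets, 44 had a feature with 1 symbol. Of these 1 rose and 2 fell, against 9.41% of all features called higher and 8.01% called lower. The median difference was 0.075, against 0.023 over all features and 0.055 over those with 1 symbol. Above the reference level were 23 of the 44. The 1 that rose was LMCD1, a LIM-domain cofactor (0.20, limma adjusted p = 0.048), and it was 0.11 after cyclic loess (limma adjusted p = 0.108). The 2 that fell were CYP4A22 and UGT2B17, with mean signals of 8.03 and 6.24, both below the reference level. UGT2B17, which glucuronidates androgens, fell by 0.31 (SE 0.079, limma adjusted p = 0.045). It read 6.39 ± 0.154 in DMSO and 6.08 ± 0.000884 in TCDD (SD, n = 2 each), and after cyclic loess it differed by -0.25 (limma adjusted p = 0.056).

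The calls of LMCD1 and UGT2B17 were lost without DMSO replicate 2 (0.17 and -0.20). The same held without TCDD replicate 1 (0.21 and -0.31) and without TCDD replicate 2 (0.19 and -0.31). Genes that supply cofactors to the conjugating enzymes did not pass. UGDH, which makes UDP-glucuronic acid, differed by 0.12, UGP2, which makes UDP-glucose, by 0.16, and PAPSS1, which makes the sulfate donor, by 0.13. After cyclic loess these differences were -0.0039, 0.091 and 0.0042. GCLM, the regulatory subunit of the enzyme that starts glutathione synthesis, differed by 0.065, and by 0.018 after cyclic loess. ARNT differed by 0.15 and TIPARP, an AhR-induced ADP-ribosyltransferase, by 0.028, and neither passed. After cyclic loess they differed by 0.030 and -0.0044. AHRR, also among the 52, had only a feature shared with PDCD6. That feature differed by 0.078 (limma adjusted p = 0.336), and by 0.0098 after cyclic loess.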

How the data were processed

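RNA was labelled with biotin and hybridised to the Affymetrix Human Transcriptome Array, 1 array per sample. Per the submitters' processing notes, the authors used RMA, and the deposited values are log2 signals. Settings, version and genome build of RMA are not given in the sources used here. Precision is limited by the number of arrays, 2 in each group. Groups came from the sample titles. The table had 13493 features on chromosomes 1 to 5, of which 6647 had 1 symbol in the platform annotation, 341 several and 6505 none.

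TCDD was compared with DMSO by limma 3.58.1 (lmFit and eBayes, R 4.3.3) without a block, with 2 residual and 4.27 prior degrees of freedom, no filter, and Benjamini-Hochberg adjustment over all features. The functions were tested on simulated data. Symbols, neighbouring genes (within 500 kb) and start sites came from RefSeq for GRCh38.p14. All members are named, with values of each array for those called, those differing by at least 0.2, CYP1B1, EPHX1, NR1I3, ABCG2 and the GSTM genes. Others given per array, such as FMO1, were chosen after their values were seen. Of 52 further pathway genes, the called ones were to be named, and UGDH, UGP2, PAPSS1, GCLM, ARNT, TIPARP and AHRR were added for their role. The members and lists were chosen with earlier results of these data known. Alternatives were a replicate block, quantile, cyclic loess (span 0.7, 3 iterations) and median scaling, leaving out the dimmest 25% or 50%, array weights, a trended robust prior, identical features counted once, the mean of a gene's features, and each array left out.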

Additional observations from a re-analysis of the deposited data

How the results depend on the processing

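The counts of members called were 1 higher and 1 lower, against 9.41% and 8.01% of all features. With a replicate block they were 2 and 2 (all features 14.3% and 12.6%), and under quantile normalization 2 and 1 (5.61% and 5.34%). After cyclic loess they were 3 and 1 (7.26% and 6.77%). Without the dimmest 25% of features 27 members were left, with 1 called higher and 0 lower (all features 13.4% higher and 8.57% lower). CYP4X1, the member called lower on all features, was left out by this filter. Without the dimmest 50% 14 members were left, with 3 called higher and 0 lower (19.2% and 6.2%). The median of those 14 was 0.082, against 0.088 over all features left. Leaving out 1 array gave 0 to 4 higher and 0 to 10 lower. The count over all features, 2351, was 3634 with the block, 1478 under quantile normalization, and 644 (without DMSO replicate 2) to 4661 (without DMSO replicate 1) with 1 array left out. The replicate numbers are not shown to pair the arrays. Differences between arrays 1 and 2 correlated at 0.037 between the groups, and the block also called CYP4Z1 and SULT1E1. EPHX1 and GSTM4 were called without the dimmest 50%.

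Signs that changed belonged to differences that were not called. After cyclic loess these were CYP2J2 (0.014), FMO5 (0.047), AOX1 (0.038), ADH5 (-0.037), ADH6 (0.046), ADH7 (0.054), GSTM2 (-0.045), UGT2B4 (0.010), UGT3A1 (0.010), SULT1C4 (-0.078) and ABCB11 (0.057). Under quantile normalization they were CYP2J2 (0.0091), FMO5 (0.039), AOX1 (0.030), ADH5 (-0.052), ADH6 (0.033), ADH7 (0.044), GSTM2 (-0.034), UGT2B4 (0.016), SULT1C4 (-0.089) and ABCB11 (0.044). CYP26B1 became 0.0021 with median centring and CYP1B1 0.11 as the mean of its features. With 1 array left out, CYP1B1 ran from -0.056 to 0.033, CYP26B1 from -0.052 to 0.035, CYP2J2 from -0.053 to 0.026, AOX1 from -0.064 to 0.0035, ADH6 from -0.093 to 0.048, ADH7 from -0.056 to 0.026, UGT2B28 from -0.16 to 0.0025, SULT1C4 from -0.012 to 0.055, ABCB11 from -0.063 to 0.036 and the dimmer CYP8B1 feature from -0.020 to 0.046. The cause was not tested. Signals below the olfactory receptor level limit what can be said of the 32 dim members, the dimmer CYP1B1 feature, CYP4A22 and UGT2B17.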

Other observations

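Conjugating enzymes whose genes share a feature belong to no comparison above. The feature shared by UGT1A1, UGT1A6 and other UGT1A genes, which conjugate bilirubin and phenols, read 7.09 and 7.11 in DMSO and 7.02 and 6.99 in TCDD, a difference of -0.092 (SE 0.050, limma adjusted p = 0.215) that was -0.025 after cyclic loess. The feature shared by UGT2A1 and UGT2A2, enzymes known from olfactory tissue, read 6.20 and 6.33 in DMSO and 6.20 and 6.15 in TCDD, a difference of -0.093 (limma adjusted p = 0.294). Both lay below the olfactory receptor level of 8.34.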
